A study of Mus musculus with 43 samples.

Results

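Expression of genes of cholesterol and fatty acid metabolism was followed in a mouse T cell line deprived of interleukin 2 (IL-2) and then given it back. The list held 39 genes, chosen by name, of the 18194 genes that the array annotation names on probe sets of their own. Of these 39 genes, 37 were measured, each by the probe set with the highest mean over the arrays. For Acat2, which condenses acetyl-CoA at the entry to the pathway, and Nr1h2, which encodes the oxysterol receptor LXRβ, the annotation used here names no such probe set, and they were not analysed. All 37 measured genes passed the filter on low signals.

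Cells build cholesterol from acetyl-CoA by way of mevalonate, farnesyl diphosphate, squalene and lanosterol, and long-chain fatty acids from acetyl-CoA and malonyl-CoA. The transcription factors SREBP1 and SREBP2, made from Srebf1 and Srebf2, are carried out of the endoplasmic reticulum by SCAP when membrane sterol is scarce, are held there by INSIG proteins when it is plentiful, and switch on most genes of both pathways. The oxysterol-sensing LXR receptors drive the opposite arm, sterol efflux, and T cells that start to divide are known for a high demand for newly made membrane lipid.

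CTLL-2 is a cytotoxic T cell line from a C57BL/6 mouse that depends on IL-2, and all groups were made from this single line in medium with fetal bovine serum. Cells in all 13 groups had first been kept for 14 h without IL-2. Human recombinant IL-2 (100 U/mL) was then present for 0.5, 1, 2, 6, 8, 10, 12, 16 or 24 h (3 arrays each) or 4 h (4 arrays). Other cells stayed without IL-2 for 4 h more (no IL-2 4 h, 4 arrays) or 8 h more (no IL-2 8 h, 3 arrays), and the baseline, starved 0 h, was taken at the end of the 14 h (5 arrays). Replicates with IL-2 are described as biological by the submitters, with no such word on the arrays kept longer without it. The p-values measure the spread between these arrays, which for the no IL-2 groups may be technical.

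Values are array signals on a linear scale, comparable between arrays for 1 gene but not between genes. Differences are on the scale of log2(signal + 16), which understates changes of dim genes, with limma's standard errors (SE), and a gene was called at a Benjamini-Hochberg adjusted p below 0.05 over 32184 probe sets. The 7 no IL-2 arrays were scanned in a later year than the other 36, so IL-2 against no IL-2 cannot be told apart from scan year. The ratio of 3′ to 5′ actin signal, a measure of RNA integrity, moved with the contrast at 8 h: it was 1.18, 1.17 and 1.11 on the IL-2 8 h arrays, all below the 1.53, 1.41 and 1.41 of the no IL-2 8 h arrays. At 4 h it was 1.07 to 1.21 with IL-2 and 1.18 to 1.34 without, which overlapped. The same ratio for Gapdh overlapped at 8 h, at 0.82, 0.93 and 0.78 with IL-2 and 0.96, 0.88 and 0.91 without. On replicate 1 of IL-2 16 h the Gapdh ratio was 1.41, against 0.86 on each other array of that time. The part of these ratios in the results was not tested. One no IL-2 4 h array, replicate 2, stood apart from its group for several lipid genes and is named where it matters. Of 10 measured T cell markers 9 lay above the array median on every array and Cd2 on none. Of 6 macrophage markers Cd68 alone did so, and of the B cell, fibroblast, erythroid, adipocyte and hepatocyte markers none. Cd14 lay above the median on 42 of 43 arrays, Csf1r on 40, Adgre1 on 32 and the fibroblast marker Col1a2 on 39. The remaining markers of these other cell types did so on at most 19. The summed macrophage signals were 1497.4 to 1642.8 on the IL-2 8 h arrays and 1861 to 2024.6 on the no IL-2 8 h arrays, and those of hepatocyte markers 28.2 to 91.9 and 108.6 to 128.7. The summed fibroblast signals were 456.3 to 568 with IL-2 for 8 h and 151.6 to 345 without, and those of erythroid markers 58.9 to 71 and 5.6 to 29.6. The part of these other markers in the results at 8 h was not tested. In these bulk samples fewer cells of a type and less RNA per cell cannot be told apart.

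After 8 h with IL-2, compared with 8 h more without it, 5 late enzymes of sterol synthesis, the sterol carrier Stard4, the sterol sensor Insig1 and fatty acid synthase (Fasn) were higher, and Osbpl5 and Tm7sf2 were lower. Thus 10 of 37 genes were called, 8 higher and 2 lower, beside 19.8% of all probe sets called, 8.70% called higher and 11.1% called lower. The median difference of the 37 genes was 0.08, against -0.01 over all probe sets tested. The median of the list thus lay close to 0, with single genes far from it on both sides. All IL-2 arrays lay above all no IL-2 arrays for 12 genes and below them for 6, beside 43.2% of all probe sets with no overlap in either direction.

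The largest rise was that of Hsd17b7, a reductase that turns the ketone left by demethylation at carbon 4 of the sterol ring back into a hydroxyl group. Its signal was 1776.7, 1989.4 and 1723.8 on the IL-2 8 h arrays, against 242.3, 190.7 and 198.7 on the no IL-2 8 h arrays. The groups lay far apart, and the difference of 3.03 ± 0.37 (SE) corresponded to 8.17-fold higher signal (adjusted p = 3.63e-07). Of 3 further Hsd17b7 probe sets, 2 were also called higher, by 2.21 and 2.11, and the other gave 0.29 (adjusted p = 0.755).

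Squalene epoxidase (Sqle), which commits squalene to sterol synthesis, had signals of 2556, 2870.3 and 2045.3 with IL-2 for 8 h, against 474.1, 448.7 and 443.4 without it. This was a difference of 2.40 ± 0.58, or 5.27-fold (adjusted p = 0.00218). Cyp51, the lanosterol demethylase, showed 2463.5, 2776.2 and 2615.8 with IL-2, against 439.1, 475.6 and 494.4 without, a difference of 2.44 ± 0.61 (5.42-fold, adjusted p = 0.0032). For both enzymes the 3 arrays of each group lay close together at 8 h and the groups were well separated. A further Cyp51 probe set was called as well, at 1.95.

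Msmo1 and Sc5d, also enzymes of sterol ring processing, differed less between the groups. Against starved 0 h neither was called at any IL-2 time. Msmo1, the oxidase that acts before Hsd17b7 on the methyl groups at carbon 4, had 2781, 3650.3 and 3138.6 with IL-2 for 8 h and 1220.5, 1251 and 1214.1 without it (difference 1.36 ± 0.43, adjusted p = 0.0205). Sc5d, the lathosterol oxidase near the end of the pathway, had 3519.5, 3028.3 and 3186.1 with IL-2 and 1303.4, 1702 and 1593.2 without (1.08 ± 0.37, adjusted p = 0.0351). Neither pair of groups overlapped, but the call on Sc5d was lost in each of 6 fits that left out 1 array of the comparison, that on Msmo1 in 5 of 6. Both other Sc5d probe sets gave smaller, uncalled differences of 0.37 and 0.41.

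Stard4, a soluble protein that carries cholesterol between membranes, had signals of 4892.2, 2895.4 and 4909.3 with IL-2 for 8 h, against 1107.6, 1200.2 and 1201.3 without. The difference was 1.80 ± 0.26 (3.48-fold, adjusted p = 5.24e-06), the groups did not overlap, and both other Stard4 probe sets were called, at 2.19 and 1.69. Insig1 had 528.9, 514.8 and 692.4 with IL-2 and 276.4, 296.5 and 239.5 without (1.04 ± 0.36, adjusted p = 0.0338). Insig1 is itself a well-known SREBP target. Its groups did not overlap, and its call was lost in each of the 6 fits that left out 1 array.

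In the mevalonate section 0 of 6 measured genes were called at 8 h by limma, although 2 of 6 had an unadjusted p below 0.05. Idi1, the isopentenyl diphosphate isomerase, had 1168.6, 1153.8 and 1286.3 with IL-2 and 554.3, 547.9 and 494.6 without, a 2.22-fold difference that missed the threshold (adjusted p = 0.0932). Hmgcs1, which makes HMG-CoA, lay the other way, at 11772.4, 12005.2 and 10473.6 with IL-2 and 19150.9, 18669.9 and 17752.3 without. Its groups did not overlap, with a difference of -0.70 ± 0.28 (adjusted p = 0.0696), and 1 of its 4 other probe sets was called lower at -0.87. For Fdps, the farnesyl diphosphate synthase, the groups did not overlap, at 3326.3, 3860.3 and 3563.8 with IL-2 and 1427.8, 1634.4 and 1593.9 without, but the difference had an interval from -0.27 to 2.66 and was not called (adjusted p = 0.274). The kinases Mvk and Pmvk and the decarboxylase Mvd gave 0.76, -0.17 and 0.18. Among the sterol steps, the squalene synthase Fdft1, the lanosterol synthase Lss, the dehydrogenase Nsdhl and the isomerase Ebp lay between -0.15 and -0.02, with adjusted p-values of at least 0.79.

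Tm7sf2, one of the sterol reductases that act on the ring double bond after Cyp51, fell. Its signal was 38.6, 39.8 and 32.7 on the IL-2 8 h arrays, against 162.5, 164.7 and 157.5 on the no IL-2 8 h arrays (-1.75 ± 0.47, adjusted p = 0.00656). None of these IL-2 arrays lay above its own array's median signal, so the size of the fall depends on the processing and ran from -2.10 to -1.16 over the settings tried, with the call kept in each. Dhcr7, the last reductase of the pathway, had 233.1, 372.1 and 350.6 with IL-2 and 563.3, 598 and 435.6 without, which did not overlap but missed the threshold (-0.73 ± 0.29, adjusted p = 0.0718). Among 11 measured sterol steps 5 were thus higher, 1 lower and 5 not called.

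**Figure D1:**
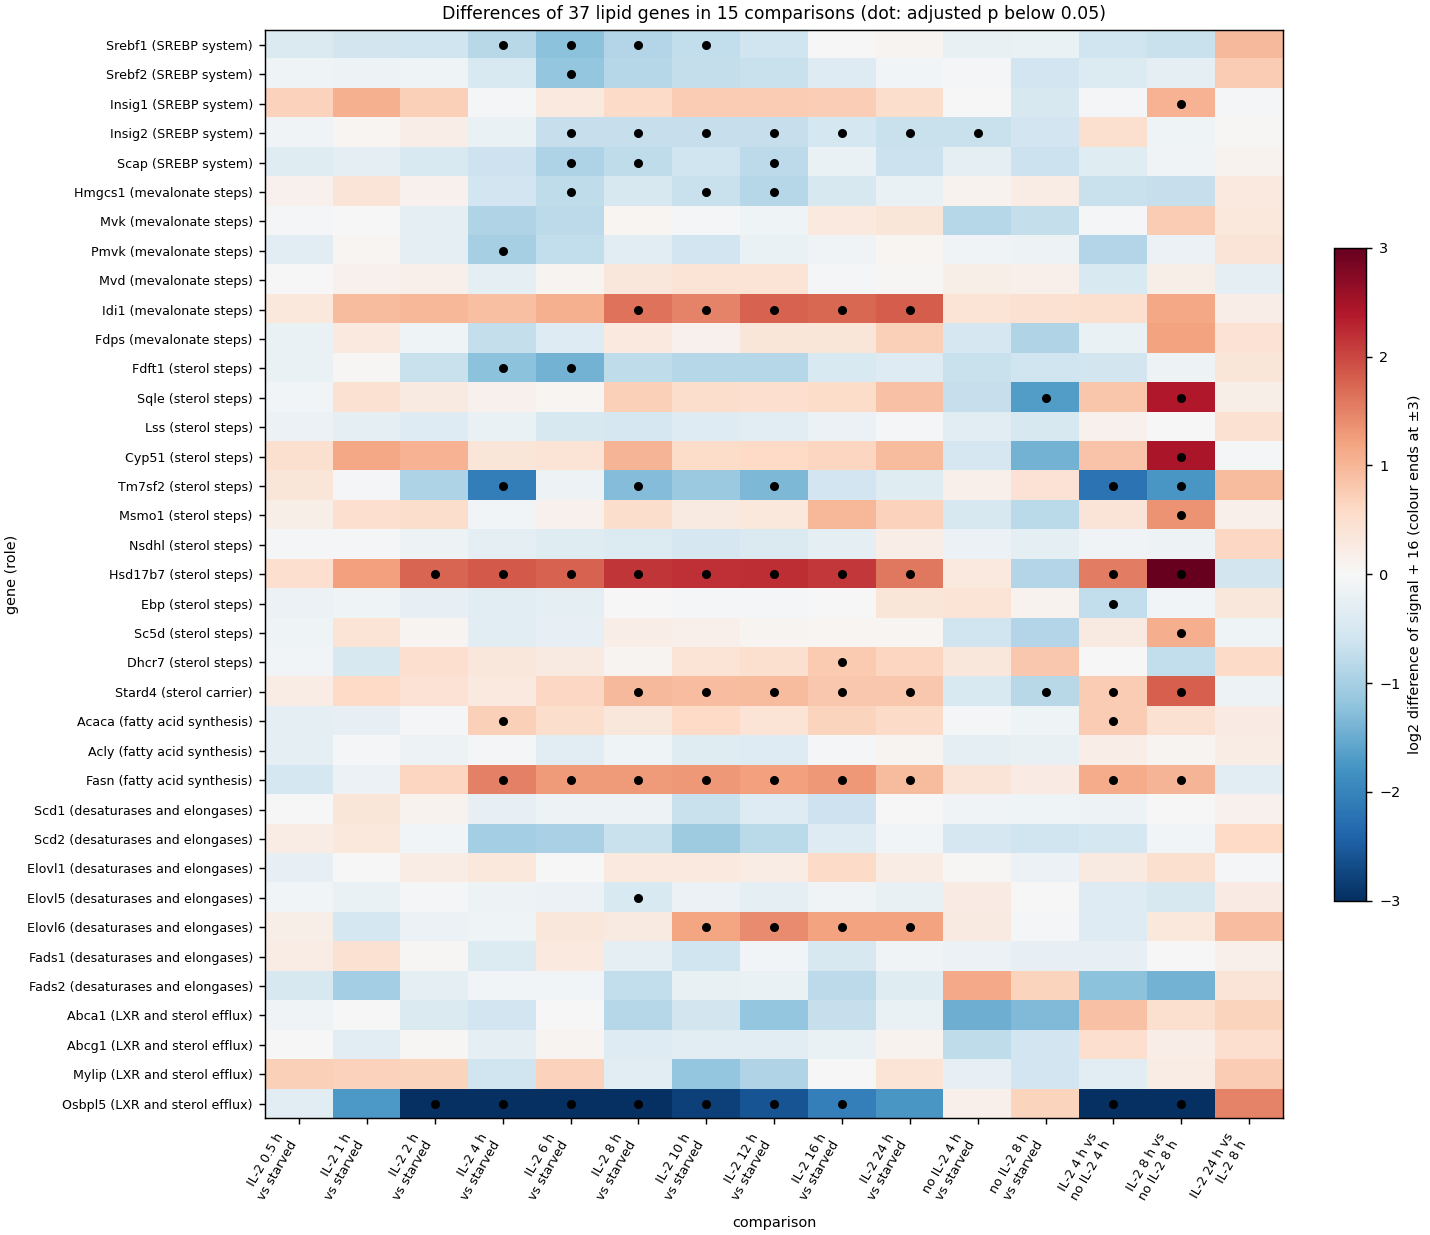
Differences in log2(signal + 16) of the 37 measured genes, grouped by role from top to bottom, in 15 comparisons from left to right; red is higher and blue lower in the group named first, the colour ends at ±3, and a black dot marks an adjusted p below 0.05. Hsd17b7, Idi1, Stard4 and Fasn carry the runs of dots on red, Osbpl5 the darkest blue, and the 0.5 h and 1 h columns hold no dot.

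The promoters of the genes with the largest differences between IL-2 and no IL-2 are shown because these genes moved most and in opposite directions. They are RefSeq sequences of the mouse assembly GRCm38.p6, from 250 bases before to 50 bases after the annotated start, 5′ to 3′ along the gene, all from the minus strand of their chromosome. Capitals mark matches on either strand to the E-box CACGTG or the box CCAAT, which reads ATTGG on the other strand. The 3 genes are Osbpl5 at chr7:143756959-143757258, Hsd17b7 at chr1:169969156-169969455 and Cyp51 at chr5:4104648-4104947. Sqle, the next by size, is named only.
Osbpl5: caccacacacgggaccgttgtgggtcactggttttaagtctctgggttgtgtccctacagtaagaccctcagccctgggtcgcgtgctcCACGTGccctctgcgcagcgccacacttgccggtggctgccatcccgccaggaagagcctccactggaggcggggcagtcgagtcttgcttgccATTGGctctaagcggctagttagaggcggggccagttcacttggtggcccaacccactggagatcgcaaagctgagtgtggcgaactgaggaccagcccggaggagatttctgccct
Hsd17b7: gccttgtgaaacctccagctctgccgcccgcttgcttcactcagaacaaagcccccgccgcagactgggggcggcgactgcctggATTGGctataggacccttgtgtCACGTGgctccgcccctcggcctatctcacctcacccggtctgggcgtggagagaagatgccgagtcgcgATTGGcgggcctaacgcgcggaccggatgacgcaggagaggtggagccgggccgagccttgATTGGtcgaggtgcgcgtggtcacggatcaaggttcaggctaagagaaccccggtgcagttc
Cyp51: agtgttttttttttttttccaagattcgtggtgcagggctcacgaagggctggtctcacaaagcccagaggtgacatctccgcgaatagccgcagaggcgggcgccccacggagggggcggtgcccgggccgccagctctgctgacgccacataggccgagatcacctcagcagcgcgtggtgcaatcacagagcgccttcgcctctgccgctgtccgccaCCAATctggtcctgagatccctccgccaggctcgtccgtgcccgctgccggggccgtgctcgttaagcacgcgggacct
Osbpl5, which fell, and Hsd17b7, which rose, both hold 1 E-box, beginning 161 and 143 bases before the start, and Cyp51 holds none. Osbpl5 and Cyp51 hold 1 CCAAT box each and Hsd17b7 holds 3. Over the 31 listed genes with a promoter in the RefSeq table, 7 held the E-box and 23 a CCAAT box, against 7.24% and 37.92% of all 27025 promoters of this length. A sterol element core spelled TCACNCCAC was found in Hmgcs1 only, against 1.22% of all promoters, and the DR4 element, the arrangement that LXR receptors bind, in none (0.01% of all). Each motif was searched on its own on both strands, and matches of different motifs may overlap. Only 1 spelling of each was searched, and that of DR4 occurs in 3 of all 27025 promoters. A lack of matches therefore does not show that such an element is absent.

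**Figure D2:**
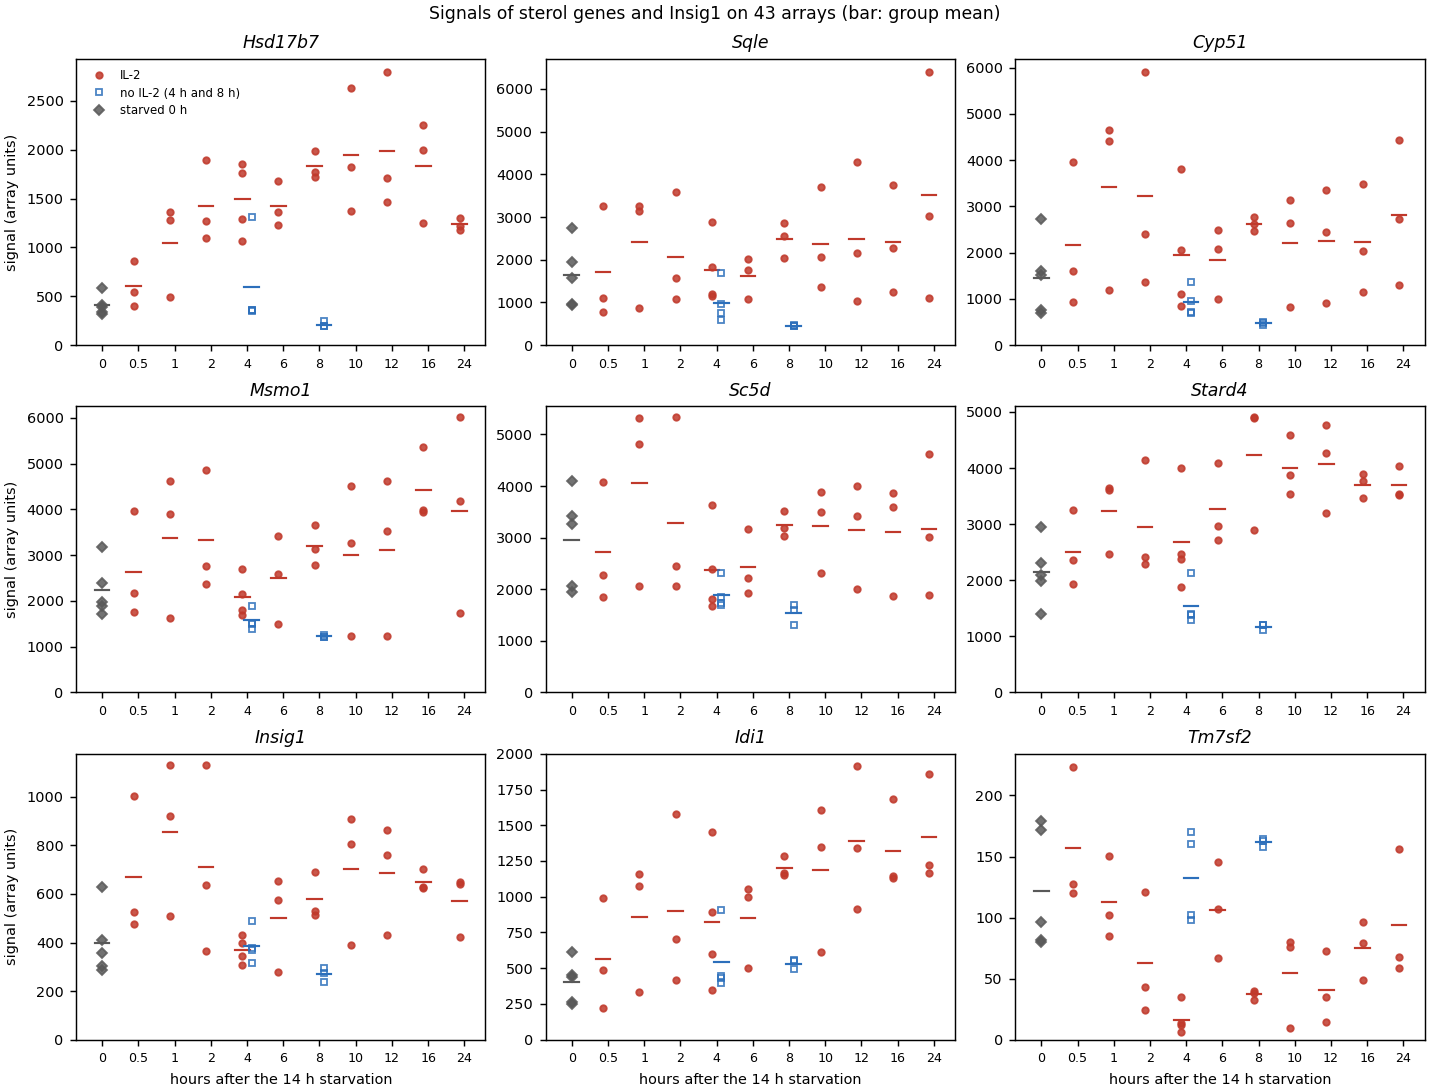
Signal (array units, linear axis from 0) of 9 genes on each of the 43 arrays against hours after the 14 h starvation; red points are IL-2 arrays, open blue squares no IL-2 arrays at 4 h and 8 h, grey diamonds starved 0 h, and bars group means. At 8 h the red points of Hsd17b7, Sqle, Cyp51, Msmo1, Sc5d, Stard4, Insig1 and Idi1 lie above the blue squares and those of Tm7sf2 below them, and the wide spread of Sqle, Cyp51 and Msmo1 within other groups can be seen.

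At 4 h the same contrast called 7 of 37 genes, 4 higher and 3 lower, beside 14.5% of all probe sets called and 7.28% called higher. The median of the 37 genes was -0.11, against 0.01 over all probe sets. The genes higher with IL-2 were Hsd17b7, Stard4, Fasn and Acaca, and those lower were Osbpl5, Tm7sf2 and Ebp. Hsd17b7 had 1068.5, 1294.9, 1859.5 and 1759.5 with IL-2 for 4 h, against 359.2, 1313.4, 356.8 and 348 without it (1.53 ± 0.32, adjusted p = 0.00106). A single no IL-2 array, replicate 2, overlapped with the IL-2 arrays, and without it the difference was 1.99.

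The same array lay with the IL-2 group for the other genes that were higher with IL-2. Stard4 had 1871.5, 2461.4, 2378 and 3998.7 with IL-2, against 1382.4, 2129.2, 1390.5 and 1285.4 without (0.76 ± 0.23, adjusted p = 0.0207), and 4 of 8 fits that left out 1 array lost the call. Acaca, the acetyl-CoA carboxylase that makes malonyl-CoA, had 858.1, 796, 756 and 654.7 with IL-2, against 397.4, 678, 306.2 and 453.8 without (0.77 ± 0.25, adjusted p = 0.0347), and 6 of 8 such fits lost the call. Fasn kept its call in all 8 and is described below.

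Ebp, the sterol isomerase, was lower only in this comparison among those made here, at 1221.8, 1419, 1741.3 and 1798.5 with IL-2 against 2285.9, 2661.9, 2958.4 and 2435.6 without (-0.75 ± 0.20, adjusted p = 0.00832). Tm7sf2 had 12, 34.6, 13.3 and 6.2 with IL-2, against 170.1, 101.9, 97.8 and 160.4 without (-2.23 ± 0.41, adjusted p = 0.000268). As at 8 h, its signal on each array given IL-2 lay below that array's median, and the difference ran from -3.13 to -1.28 over the settings tried. Both sets of groups were clear of each other. Sqle and Cyp51, called at 8 h, gave 0.83 ± 0.50 and 0.86 ± 0.53 at 4 h (adjusted p = 0.299 and 0.308). The difference between the IL-2 effects at 8 h and at 4 h was tested as an interaction. It was called for 0 of 37 genes by limma, beside 0.0497% of all probe sets, with 6 of 37 at an unadjusted p below 0.05. Its median over the 37 genes was 0.25, against -0.04 over all probe sets. A difference between the effects at these times was thus not shown for any member.

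**Figure D3:**
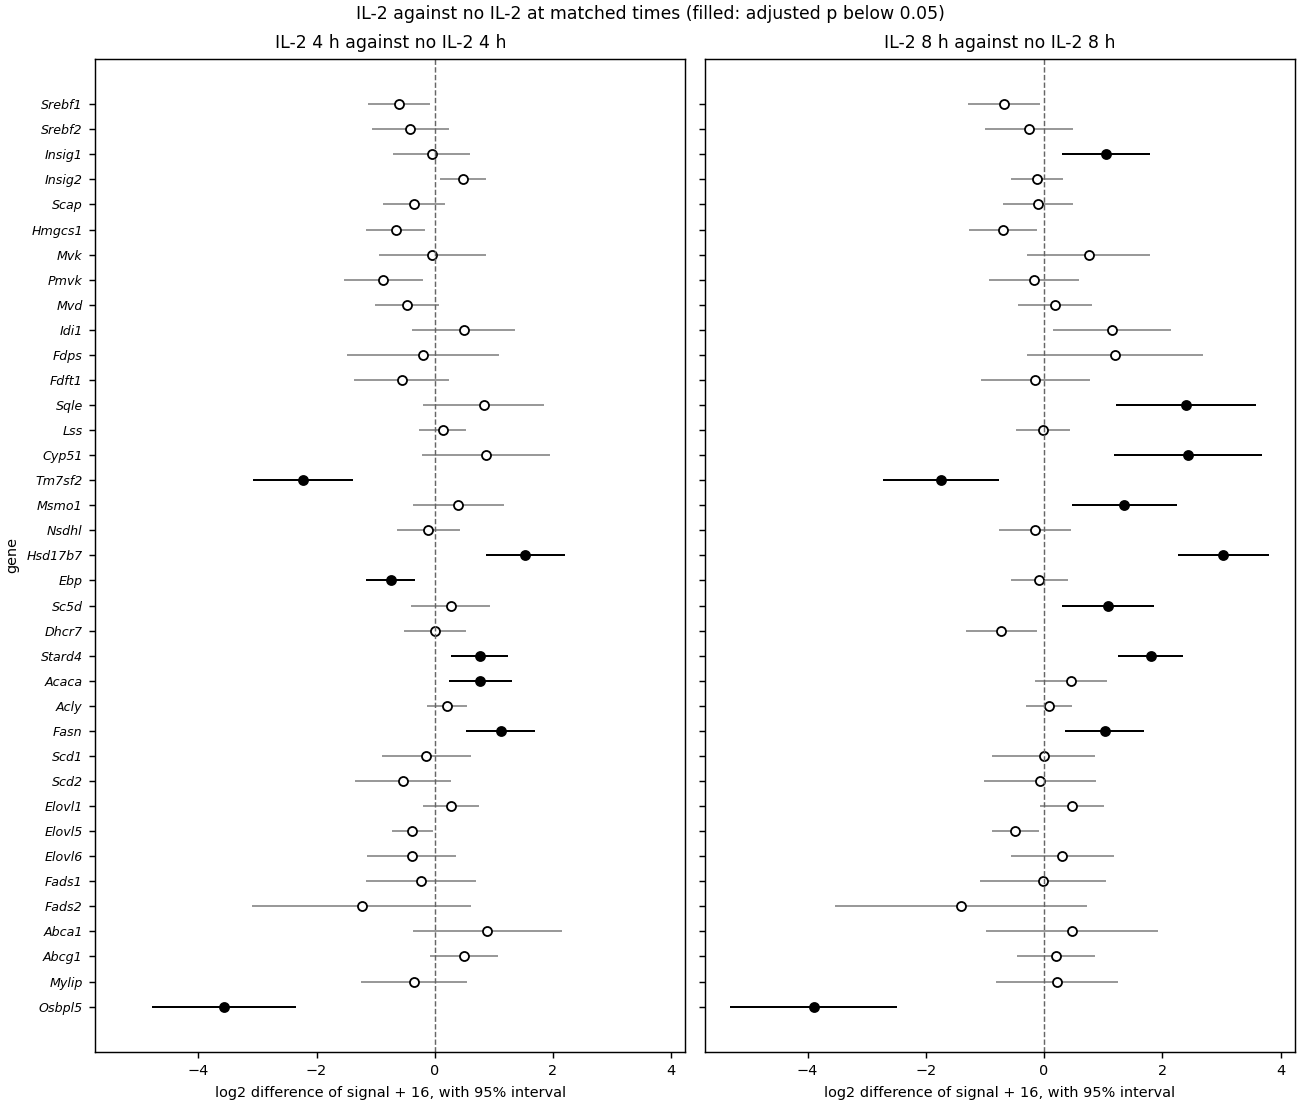
Difference in log2(signal + 16) between IL-2 and no IL-2 for each of the 37 genes, at 4 h on the left and 8 h on the right on 1 shared axis, as points with 95% intervals; filled points have an adjusted p below 0.05. Osbpl5 and Tm7sf2 lie left of 0 at both times, Hsd17b7, Stard4 and Fasn right of it, and Sqle and Cyp51 are filled at 8 h only.

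Osbpl5, an oxysterol-binding protein homologue that moves lipids at membrane contact sites and is listed here with the sterol efflux genes, showed the largest change of all members. With IL-2 for 8 h its signal was 70.6, 34.2 and 47.7, against 913.7, 943.3 and 1017 without, a difference of -3.90 ± 0.69 (14.9-fold lower, adjusted p = 6.38e-05). At 4 h it was 119.2, 22.3, 56.5 and 13 with IL-2, against 780.5, 194.1, 1084.1 and 1131.3 without (-3.56 ± 0.59, adjusted p = 8.51e-05). The groups were separate at both times, replicate 2 of no IL-2 4 h being again the array nearest to the IL-2 group. The size of these differences depends on the constant added before taking logs, since the low values lie near or below the array medians, and at 8 h ran from -4.27 to -3.16 over the settings tried.

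Its fall could be followed in time. Osbpl5 was 655.1, 606.6, 692.2, 618.8 and 439.4 at starved 0 h, 510.4, 640.7 and 333.4 at 0.5 h of IL-2, and 445, 140.5 and 73.8 at 1 h. From 2 h to 12 h all 19 arrays lay between 13 and 146.8. At 16 h it was 52.3, 193.4 and 209.2 and at 24 h 32.7, 401.8 and 285.3. It was called lower than starved 0 h at 7 times, 2 h to 16 h, with differences between -3.41 and -2.05, and at 24 h the difference of -1.74 ± 0.61 missed the threshold (adjusted p = 0.0676), although all 3 arrays still lay below starved 0 h. The other genes of this arm, the cholesterol exporters Abca1 and Abcg1 and the LDL receptor-degrading ligase Mylip, were called in none of the 15 comparisons of 2 groups. Abca1 lay above its array's median on 23 of 43 arrays and Mylip on 22, so that both were dim.

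The comparison of each IL-2 time with starved 0 h shows when genes were first called. Differences in timing between genes were not tested. No gene was called at 0.5 h or 1 h (0 of 37 each by limma, with 1 and 7 at an unadjusted p below 0.05), beside 0.134% and 0.519% of all probe sets. At 2 h there were 2 calls, Hsd17b7 higher and Osbpl5 lower, beside 2.81%. The counts were then 8 (3 higher, 5 lower) at 4 h beside 15.1%, 9 (2 and 7) at 6 h beside 16.8%, and 10 (4 and 6) at 8 h beside 19.1%. They were 9 (5 and 4) at 10 h beside 20.0%, 10 (5 and 5) at 12 h beside 19.4%, 8 (6 and 2) at 16 h beside 15.4%, and 6 (5 and 1) at 24 h beside 8.79%. Over the 10 times 17 genes were called at least once, 7 only higher and 10 only lower, and 20 never. The share of all probe sets called at least once was not counted, so these totals do not set the list apart. All 10 comparisons share the starved 0 h arrays. The split into higher and lower depends on the scaling, since the median difference of all probe sets lay between -0.23 and 0.06. With each array centred on its median, which moved that of all probe sets to between -0.17 and 0.13, the members called were 3 higher and 2 lower at 4 h, 2 and 2 at 6 h, and 4 and 2 at 8 h. At 10 h 7 were higher and 1 lower, at 12 h 6 higher and 2 lower, at 16 h 7 higher and 0 lower, and at 24 h 3 higher and 0 lower. No called member turned its sign under any scaling tried.

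Hsd17b7 was the first sterol gene called and stayed called at each of the 8 times from 2 h on. It had 1272, 1099.4 and 1893 after 2 h of IL-2, against 387.1, 338.8, 407, 321.9 and 585.9 at starved 0 h, with no overlap (1.75 ± 0.33, adjusted p = 0.00117). The difference was largest at 12 h, at 2.22 ± 0.33 with arrays of 1709.5, 2798.6 and 1464.3, and was 1.59 ± 0.33 at 24 h with 1306.4, 1223.3 and 1181.3.

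Idi1 and Stard4 were both called at the 5 times from 8 h on. Before any call, Idi1 read 336.5, 1074.4 and 1159.6 after 1 h of IL-2. Idi1 had 261.2, 251.3, 451, 436.9 and 611.9 at starved 0 h, 1168.6, 1153.8 and 1286.3 after 8 h of IL-2, and 1168.9, 1856.5 and 1218.7 after 24 h. The arrays of 8 h and of 24 h all lay above those of starved 0 h, with differences of 1.62 ± 0.44 and 1.82 ± 0.44 (adjusted p = 0.00633 and 0.00593). Stard4 gave 0.97 ± 0.24 at 8 h and 0.81 ± 0.24 at 24 h (adjusted p = 0.00263 and 0.0238). Its 8 h arrays, given above, overlapped with the 1400.4, 1982.5, 2315.4, 2100.9 and 2954.5 of starved 0 h through 1 array, and those of 24 h did not. The Stard4 call at 24 h was lost with median centring, with only the arrays compared and without the arrays of scan day 2. Without replicate 1 of starved 0 h the Stard4 calls at 16 h and 24 h were both lost. The Idi1 call at 10 h was lost with scan day as a fixed block, and without replicate 2 or replicate 3 of IL-2 10 h. Dhcr7 was called once, at 16 h (0.78 ± 0.26, adjusted p = 0.0326, overlapping groups), a call lost in 4 of 8 fits that left out 1 array.

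Other sterol genes went down in the middle of the course. Fdft1 had 856.8, 1217.8 and 2016 after 6 h of IL-2, against 3058.1, 2489.8, 3922.2, 4471.4 and 3666.4 at starved 0 h, with no overlap (-1.42 ± 0.40, adjusted p = 0.0108), after a call at 4 h (-1.23 ± 0.37). Of its 3 other probe sets 1 was called lower at both times, at -1.59 and -1.30, and the others were not. With its probe sets averaged the differences were -0.53 at 6 h and -0.73 at 4 h, and both calls were lost, as they were with median centring. Hmgcs1 was called lower at 6, 10 and 12 h, by -0.76, -0.67 and -0.84, with 6323.3, 10974.8 and 9952.4 at 12 h and 16612.1, 13972.9, 14145.1, 14506.7 and 21192.5 at starved 0 h. All 3 calls were lost with median centring, and that at 10 h in 6 of 8 fits that left out 1 array. Pmvk was lower at 4 h (-0.99 ± 0.30, adjusted p = 0.0212) and Tm7sf2 at 4, 8 and 12 h (-2.08, -1.31 and -1.35). Fits that left out 1 array lost the Tm7sf2 call 5 times in 8 at 8 h, 4 times in 8 at 12 h and never at 4 h, and the Pmvk call 3 times in 9. At 8 h of IL-2, Idi1 was thus called higher and Tm7sf2 lower than at starved 0 h, within the same pathway.

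Cells kept without IL-2 were also set against starved 0 h, a contrast that cannot be told apart from scan year. The actin ratio also moved with the contrast at 8 h, at 1.41 to 1.53 for no IL-2 8 h and 1.07 to 1.36 for starved 0 h. Its part here was not tested. With 8 h more of starvation 2 of 37 genes were called against starved 0 h, beside 5.46% of all probe sets, and both were lower. Sqle had 474.1, 448.7 and 443.4 at no IL-2 8 h, against 956.8, 938.3, 1583.2, 1947.8 and 2741.1 at starved 0 h (-1.69 ± 0.51, adjusted p = 0.0436). Stard4 fell by 0.83 ± 0.24 (adjusted p = 0.0292), and all no IL-2 8 h arrays of both genes lay below all starved 0 h arrays. In all, 13 of 37 genes lay below all starved 0 h arrays and 2 above them, beside 17.1% of all probe sets with no overlap in either direction. The 11 that lay below and were not called were Srebf2, Insig2, Fdps, Fdft1, Lss, Scd2, Abcg1, Cyp51, Hsd17b7, Sc5d and Msmo1, and the 2 above were Dhcr7 and Osbpl5. Of those called between IL-2 and no IL-2 at 8 h, Cyp51, Hsd17b7, Sc5d and Msmo1 gave -1.42, -0.88, -0.89 and -0.82 (adjusted p = 0.125, 0.119, 0.117 and 0.234). Both calls rest on narrow margins: without replicate 3 or 5 of starved 0 h, or any 1 of the 3 no IL-2 8 h arrays, 0 genes were called, and without replicate 4 of starved 0 h 1 was. With 4 h more of starvation 1 of 37 genes was called, Insig2, beside 8.01% of all probe sets, and without no IL-2 4 h replicate 2 none was, whereas without replicate 1 or 4 of that group 2 were.

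Sqle and Cyp51 were never called between an IL-2 time and starved 0 h. Their starved 0 h arrays were themselves far apart, at 690, 765.5, 1610.8, 1505.9 and 2724.4 for Cyp51. This spread within groups was a property of part of the list. The residual standard deviation, on the log2 scale, was 0.996 for Fdps, 0.83 for Cyp51 and 0.78 for Sqle, above those of 98.8%, 91.8% and 86.1% of all probe sets tested. After 24 h of IL-2 Fdps read 967.3, 12821.7 and 8971.1, Cyp51 1294.2, 4432.9 and 2716.1 and Sqle 1113.1, 6402.5 and 3032.4. The same array, replicate 1 of 24 h, was the lowest of its group for 15 of 18 sterol synthesis genes and Stard4, and replicate 2 the highest for 12. Replicate 1 was the lowest for 13 of the 18 at 10 h and at 12 h too, and replicate 2 the highest for 16 and 15. Sterol genes of 1 array therefore tended to lie together on 1 side of these groups. Of the 19 other members, replicate 1 was lowest for 4 at 10 h, 9 at 12 h and 8 at 24 h. It was highest for 9, 4 and 9 of them. Such counts were not made over all probe sets. Replicate 1 of 24 h was scanned on scan day 2 and had a median signal of 96.3, against 46.1 and 66.6 on the other arrays of 24 h.

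Of the regulators, Srebf1 was lower in the middle of the course. It had 2051.8, 1066.6, 1823.2, 1947.3 and 1461.8 at starved 0 h, 953.7, 527.7, 1396 and 935.2 after 4 h of IL-2, 625.5, 794.4 and 657.8 after 6 h, 844.5, 918.2 and 861.5 after 8 h, and 1267.4, 2766.6 and 1462.5 after 24 h. It was called lower at 4, 6, 8 and 10 h, most at 6 h (-1.22 ± 0.26, adjusted p = 0.000841), where the groups did not overlap. The call at 10 h was lost in 5 of 8 fits that left out 1 array, and those at 4, 8 and 10 h with median centring. Srebf2 was called lower at 6 h only, at 635.7, 847.2 and 680.4 against 1488.1, 1185.4, 1666.3, 2332.8 and 1575.3 at starved 0 h (-1.15 ± 0.32, adjusted p = 0.0099), and its other probe set gave -0.79 (adjusted p = 0.0538). The Srebf2 call was lost with median centring and without replicate 1 of IL-2 6 h. Between IL-2 and no IL-2 at 8 h Srebf1 gave -0.68 ± 0.29 and Srebf2 -0.26 ± 0.36, neither called (adjusted p = 0.101 and 0.692).

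The partners of SREBP differed from each other. Insig2 was called lower than starved 0 h at the 6 times from 6 h on, by -0.70 at most, with 1130.3, 996.5 and 1244.1 after 6 h of IL-2, against 1802.9, 1525.3, 2144.5, 1667.8 and 1997.5 at starved 0 h. The call at 16 h was lost in 7 of 8 fits that left out 1 array and that at 24 h in 3 of 8, and median centring ended all 6. It was also lower without IL-2: no IL-2 4 h arrays read 1300.3, 974.1, 1167 and 1119.5 (-0.67 ± 0.17, adjusted p = 0.0132), a call lost with median centring, with scan day as a random block and with its probe sets averaged. Between IL-2 and no IL-2 at 8 h the difference was -0.12 ± 0.21 (adjusted p = 0.759). Insig1, by contrast, was called at no IL-2 time against starved 0 h, its differences lying between -0.05 and 1.05. Scap was called lower at 6, 8 and 12 h (-0.92, -0.75 and -0.77), with overlapping groups each time. The calls at 8 h and 12 h were each lost in 5 of 8 fits that left out 1 array, and that at 6 h without replicate 3 of IL-2 6 h. Median centring ended all of these calls, and averaging the Scap probe sets ended those at 6 h and 8 h. The Scap value within scan day 2 at 6 h had the other sign, the sole exception among 105 such values of called genes.

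**Figure D4:**
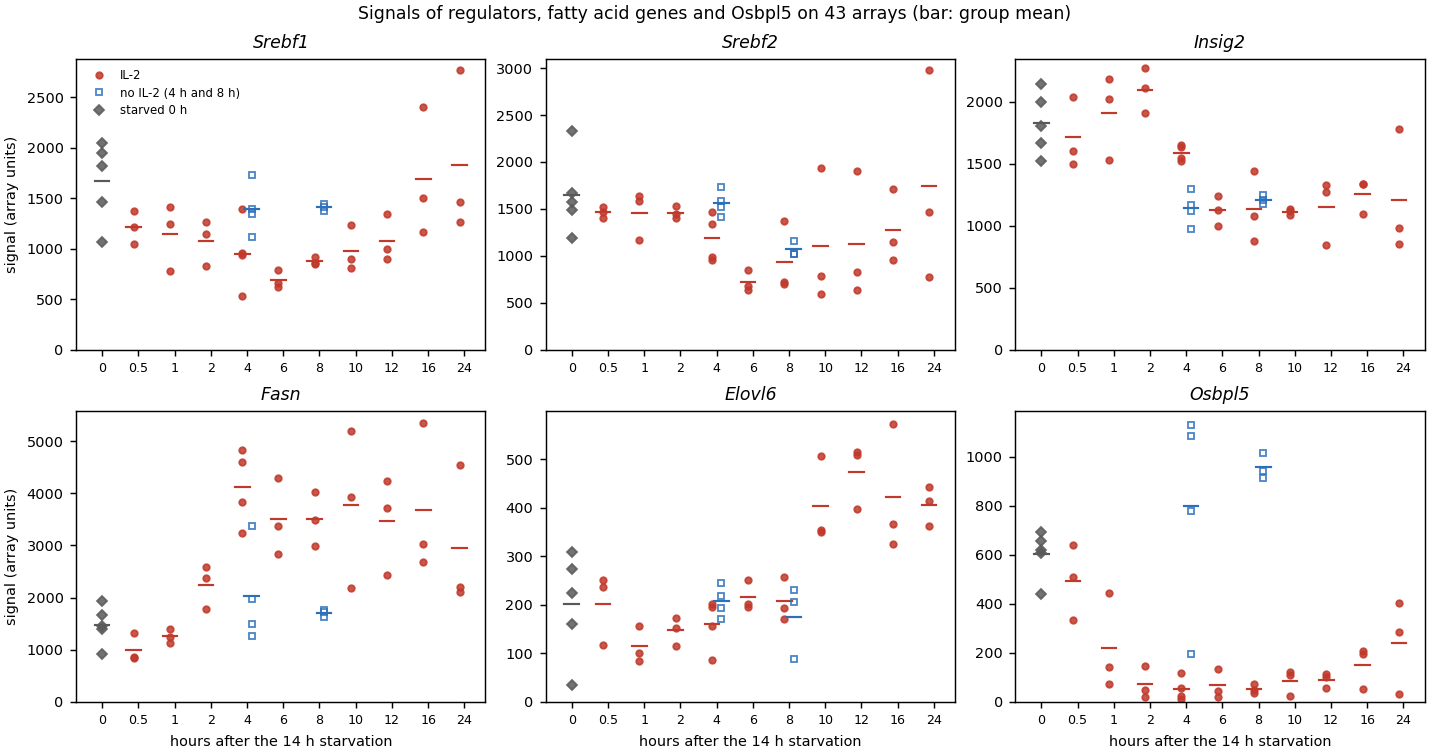
Signal (array units, linear axis from 0) of Srebf1, Srebf2, Insig2, Fasn, Elovl6 and Osbpl5 on each of the 43 arrays against hours after the 14 h starvation; red points are IL-2 arrays, open blue squares no IL-2 arrays, grey diamonds starved 0 h, and bars group means. Srebf1 and Srebf2 are lowest at 6 h, Fasn is raised from 4 h and Elovl6 from 10 h on, and 1 no IL-2 4 h array of Osbpl5 and of Fasn lies apart from the other 3.

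Fasn, which assembles palmitate, was called at more times than any other fatty acid gene of the list. It had 4830.7, 4596.5, 3240.4 and 3836.5 after 4 h of IL-2, against 1934.3, 914.1, 1393.4, 1444.5 and 1660 at starved 0 h, with no overlap (1.50 ± 0.26, 2.84-fold, adjusted p = 8.28e-05). It was called higher at the 7 times from 4 h on, with 0.95 ± 0.29 at 24 h (adjusted p = 0.0303). With scan day as a fixed block the calls at 10 h and 12 h were lost, at 0.75 and 0.68. That at 24 h was lost in 3 of 8 fits that left out 1 array, with median centring, with only the arrays compared and without the arrays of scan day 2, at 0.43. Against no IL-2 the rise was 1.11 ± 0.28 at 4 h, where the no IL-2 arrays read 1486.1, 3383.3, 1256.7 and 1972.1, and 1.02 ± 0.32 at 8 h, where IL-2 arrays of 3491.5, 4027.1 and 2983.9 stood against no IL-2 arrays of 1726.1, 1622.2 and 1762.8 (adjusted p = 0.00509 and 0.0191). At 4 h replicate 2 without IL-2 lay among the IL-2 arrays, and at 8 h the groups were separate, but the call at 8 h was lost in 3 of 6 fits that left out 1 array and with median centring.

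Acaca and the citrate lyase Acly, which act before Fasn, changed less. Acaca was called higher than starved 0 h at 4 h alone (0.70 ± 0.24, adjusted p = 0.041), and another probe set of it was called between IL-2 and no IL-2 at 8 h at 1.63 while the one used gave 0.45. Acly was called in none of the 15 comparisons and gave 0.08 ± 0.18 between IL-2 and no IL-2 at 8 h, with an interval from -0.29 to 0.45.

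Among the desaturases and elongases, Elovl6, which lengthens palmitate to stearate, rose late. It had 224.5, 160.9, 272.9, 309.7 and 35.4 at starved 0 h and 193.9, 170.1 and 257.3 after 8 h of IL-2, then 506.4, 353.5 and 350.9 after 10 h and 515.8, 509 and 397.9 after 12 h. All arrays of 10, 12, 16 and 24 h lay above those of starved 0 h, and it was called at these 4 times (1.41 ± 0.38 at 12 h, adjusted p = 0.00592). Without starved 0 h replicate 5, the lowest array, the 10 h difference was 0.72 and was not called, and the calls at 16 h and 24 h were lost too, at 0.76 and 0.74. All 4 calls were lost when only the arrays compared were fitted, and when the 3 probe sets were averaged, at 0.25, 0.61, 0.71 and 0.47 from 10 h to 24 h. Neither other probe set was called at 10 h (0.72 and -1.14) or 12 h (0.91 and -0.49). Elovl5 was called lower at 8 h (-0.47 ± 0.17, adjusted p = 0.0445), where the 3 arrays of 2355.7, 2221.5 and 2398.5 lay below 2906.4, 3058.9, 4391.3, 3170.5 and 2793 at starved 0 h. That call was lost in 6 of 8 fits that left out 1 array, with median centring and with both its probe sets averaged. Elovl1 was called in no comparison of 2 groups and gave 0.47 ± 0.26 between IL-2 and no IL-2 at 8 h, where 1 of its 3 other probe sets was called higher at 0.62.

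The stearoyl-CoA desaturases, which make oleate, differed in how well they were measured. Scd1 lay above its array's median on 3 of 43 arrays, between 15.8 and 100.9, so that no statement on its change can rest on these values. Scd2 was above the median on all 43. It had 5106.4, 7506.3, 8844 and 16191.6 after 4 h of IL-2, against 15450.9, 18109.7, 15568.6, 16355.3 and 23757.8 at starved 0 h, overlapping through 1 array. It was called by the F test for any difference among starved 0 h and the 10 times with IL-2, although in no comparison of 2 groups. Between IL-2 and no IL-2 at 8 h Scd2 gave -0.07 ± 0.46 (adjusted p = 0.943).

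Fads2, the delta-6 desaturase, had the widest spread within groups of all 37 genes, with a residual standard deviation of 1.44 that placed it above 99.9% of the probe sets tested. Its 43 values fell into 2 ranges. On 14 arrays it lay between 174.8 and 555.8, and on 29 between 862.6 and 3409.1. Each of the 10 IL-2 times and starved 0 h held 1 or 2 of the 14 low arrays, and neither no IL-2 group held any. Another Fads2 probe set showed the same gap, with 13 of the 14 arrays between 147.9 and 281 and the other 30 arrays between 582 and 3853. All 14 low arrays were scanned on scan day 3, which also held 5 arrays of the upper range. The low arrays included replicate 3 of each IL-2 time with 3 arrays. Replicate 3 of IL-2 4 h (2812.2) and of starved 0 h (1917) lay in the upper range. Whether the gap goes with scan day or with replicate number was not tested. Between IL-2 and no IL-2 at 8 h Fads2 gave -1.41 ± 1.05, from 318.9, 3254.2 and 368.2 with IL-2 and 1980.8, 1927.5 and 2016.8 without (adjusted p = 0.395), and a further probe set of it was called lower at -3.55 (adjusted p = 0.00399). That probe set did not show the same gap. On it the 7 no IL-2 arrays, all scanned in the later year, read 428.8 to 933.1, and the other 36 arrays 383.2 or less. Fads1, the delta-5 desaturase, lay above the median on 21 of 43 arrays and was called nowhere.

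**Figure D5:**
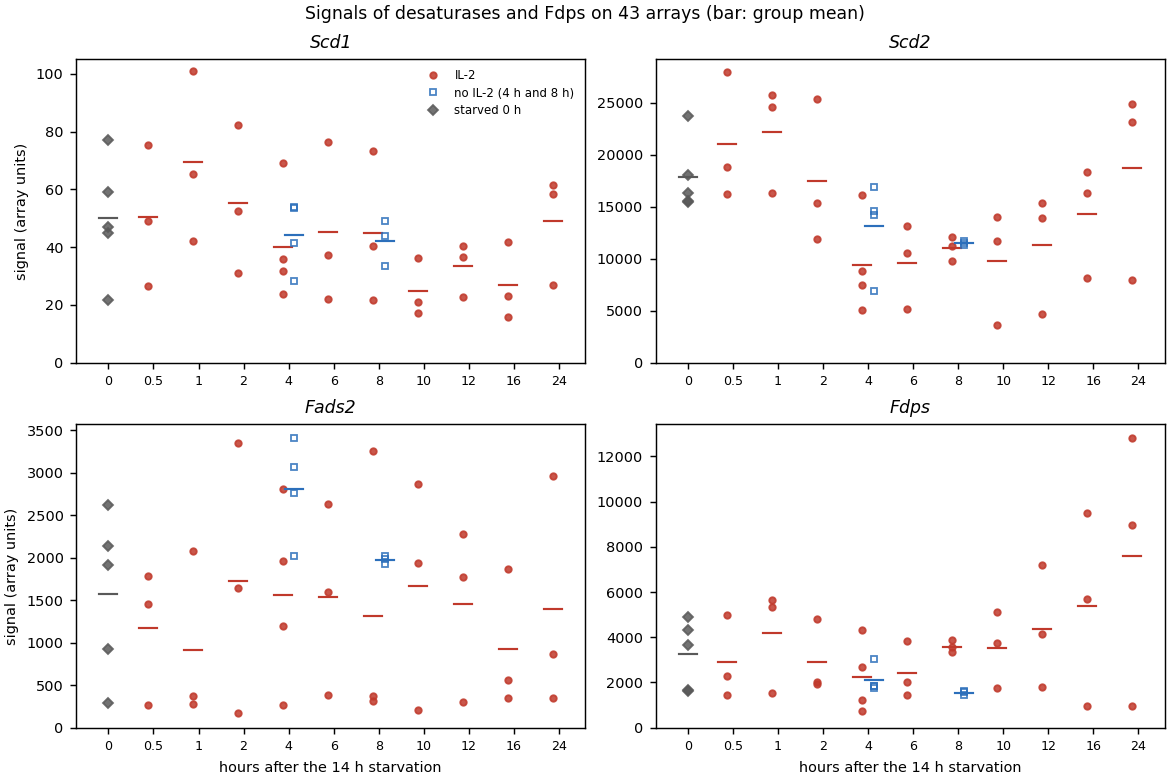
Signal (array units, linear axis from 0) of Scd1, Scd2, Fads2 and Fdps on each of the 43 arrays against hours after the 14 h starvation; red points are IL-2 arrays, open blue squares no IL-2 arrays, grey diamonds starved 0 h, and bars group means. Fads2 points of the same group fall at 555.8 or less or at 862.6 or more, Fdps arrays are farthest apart at 16 h and 24 h, and Scd1 stays at 100.9 or less.

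Between 24 h and 8 h of IL-2, 0 of 37 genes were called by limma, beside 2.42% of all probe sets, and 6 of 37 had an unadjusted p below 0.05. The median difference was 0.29, against -0.02 over all probe sets. Srebf1 was nearest to a call, at 1267.4, 2766.6 and 1462.5 after 24 h and 844.5, 918.2 and 861.5 after 8 h (0.97 ± 0.29, adjusted p = 0.0695). Without replicate 1 of 24 h, the array that was low for most sterol genes, 4 genes were called, all higher. That F test called 14 of 37 genes, beside 26.8% of all probe sets. They were Srebf1, Insig2, Hmgcs1, Idi1, Tm7sf2, Hsd17b7, Dhcr7, Stard4, Acaca, Fasn, Scd2, Elovl6, Mylip and Osbpl5. The authors' deposited table of probe sets that changed over the course lists 13 probe sets of 11 of the 37 genes. It includes the probe sets used here for 9 genes, and 7 of those 9 were called by the F test, Scap and Srebf2 being listed and not called.

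Genes of neighbouring lipid pathways were also counted between IL-2 and no IL-2 at 8 h, where 8.70% of all probe sets were called higher and 11.1% lower. Of 17 genes of fatty acid oxidation 0 were higher and 6 lower, among them Cpt1a, the carnitine transferase that admits fatty acids to mitochondria (-2.54 ± 0.38), and the thiolase Acaa2 (-2.15 ± 0.28). Cpt1a was higher again at 24 h than at 8 h of IL-2 (1.64 ± 0.38, adjusted p = 0.012). Of 13 genes of the isoprenoid branch 5 were higher and 2 lower, among them Nus1, a subunit of the dolichol-making transferase (1.56), and the Rab prenylation subunit Rabggtb (1.13). Of 18 genes of phospholipid and triglyceride synthesis 3 were higher and 4 lower, among them the acyltransferase Agpat5 (1.80) and the triglyceride-forming Dgat2 (-1.61), and Agpat3 was lower at 24 h than at 8 h (-0.85). Of 11 genes of sterol storage and transport 2 were higher and 4 lower, with Osbpl9 at -1.50 and the lipoprotein receptor Scarb1 at 1.03, and Osbpl9 was higher at 24 h than at 8 h (1.18). Of 11 genes of SREBP processing 1 was higher and 2 lower, among them Lpin1 (-1.31) and Mbtps1, the site-1 protease (-0.88). Of 9 fatty acid uptake genes tested 0 were higher and 1 lower, Dbi at -0.95.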

How the data were processed

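Total RNA from CTLL-2 cells was hybridised to 43 Affymetrix Mouse Genome 430 2.0 arrays, 1 sample each. The deposited signal is an intensity per probe set on a linear scale, made with GCOS 1.3 per the submitters' processing notes, and it had a trimmed mean of 500.003 to 500.004 on every array. The authors' deposited list of probe sets that changed gives 1 FDR, an adjusted p-value, per probe set, per the file headers. Median signals were 96.3 to 118.6 on the 7 arrays of scan day 2 and 46.1 to 76.5 on the other 36, and the number of arrays limits the precision.

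From these values log2(signal + 16) was computed, and probe sets above the array median on at least 3 arrays were kept, 32184 of 45101. Of all probe sets 34958 name 1 gene and 932 several, and those with several were not used to name a gene. The fit, by limma 3.58.1 in R 4.3.3, took all arrays with a mean for each of the 13 groups, with empirical Bayes moderation along a trend, Benjamini-Hochberg adjustment and 17 comparisons. The script was tested on simulated data. The members and lists were chosen with earlier results of these data known. Per-array values are given for genes called between IL-2 and no IL-2 at 4 h or 8 h, between 24 h and 8 h, or among the 5 largest calls of a time against starved 0 h, and for the regulators and the Scd pair. Values of other genes were added after they were seen. Of each neighbouring list up to 2 called genes with the largest differences are named. Promoters were matched by symbol for 31 of 39 genes. The alternatives were other constants, scalings, filters, blocks, probe set choices and left-out arrays.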

Additional observations from a re-analysis of the deposited data

Results flagged for a closer look

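In 111 groups of 4 or 5 arrays, 1 gene at a time, 6 single arrays lay far from the rest of their group by Dixon's test. Chance alone would give this in about 1 of 20 groups, and 6 of 111 lies close to that rate. Of the 6 arrays flagged, 3 concerned replicate 2 of no IL-2 4 h. Hsd17b7 read 1313.4 there, against 348 to 359.2 on the other 3 arrays, Idi1 read 905.1, against 399.2 to 446.8, and Stard4 read 2129.2, against 1285.4 to 1390.5. In the same group Fdps read 3017 on replicate 3, against 1756.9 to 1852.7 on the others, and Scap read 4023.5 on replicate 4, against 2936.7 to 3061.2. Elovl5 read 4391.3 on replicate 3 of starved 0 h, against 2793 to 3170.5 on the other 4 arrays.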

How the results depend on the processing

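No called gene turned its sign under any alternative: of 882 values of the 82 called results 776 stayed called and 106 lost the call, and of 645 values with 1 array left out 512 stayed called. Under all of them 36 results were called, among them Hsd17b7, Cyp51, Sqle, Stard4, Osbpl5 and Tm7sf2 between IL-2 and no IL-2 at 8 h. The counts of genes called moved as follows, and the cause was not tested. With median centring, the contrast of IL-2 with no IL-2 gave 6 at 8 h and 4 at 4 h. Set against starved 0 h, median centring gave 5 for IL-2 4 h, 4 for IL-2 6 h, 6 for IL-2 8 h, 3 for IL-2 24 h, and 0 for both no IL-2 groups. With only the arrays compared in the fit, 17 were called between IL-2 8 h and no IL-2 8 h, and against starved 0 h 2 for IL-2 24 h and 8 for no IL-2 8 h. No IL-2 8 h against starved 0 h gave 1 with 64 added before logs and 1 without the filter. With all probe sets of a gene averaged, no IL-2 4 h gave 2. With scan day as a random block IL-2 1 h gave 1, no IL-2 4 h 0 and no IL-2 8 h 0, and as a fixed block IL-2 1 h gave 1. Pairing by replicate number was checked within the 15 comparisons only, and in 0 of 15 did every pair correlate above 0.1 (range -0.36 to 0.37). Whether arrays of other IL-2 times that share a replicate number belong together was not tested. With the replicate block IL-2 1 h gave 1, no IL-2 4 h 3 and no IL-2 8 h 0. Without the 7 arrays of scan day 2, an alternative chosen after seeing the data, IL-2 1 h gave 1, IL-2 24 h 2, no IL-2 4 h 2, no IL-2 8 h 5, and 24 h against 8 h 4.

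Leaving out 1 array gave 6 to 7 calls between IL-2 8 h and no IL-2 8 h (6 without replicate 2 of either group) and 5 to 8 between IL-2 4 h and no IL-2 4 h. Against starved 0 h it gave 0 to 1 for IL-2 1 h (1 without replicate 1), 5 to 9 for IL-2 4 h (5 without replicate 2), 6 to 10 for IL-2 6 h and 6 to 10 for IL-2 8 h (6 without replicate 1). IL-2 10 h and IL-2 12 h gave 7 to 11, IL-2 16 h 4 to 9 (4 without replicate 1, 5 without replicate 2), and IL-2 24 h 3 to 8 (3 without replicate 1). It gave 0 to 2 for no IL-2 4 h and 0 to 3 for no IL-2 8 h, with the arrays named above, and 0 to 4 for 24 h against 8 h (4 without replicate 1 of 24 h). The F test gave 12 to 17. Signal over background limits what can be said of Scd1, Fads1, Mylip and Abca1 and of the size of the falls of Tm7sf2 and Osbpl5, and groups of 3 arrays leave wide intervals for Fdps, Sqle, Cyp51 and Fads2.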
